A study of Mus musculus with 18 samples.

Results

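Complement and coagulation are cascades of plasma proteins, most of them made by hepatocytes. In complement, C1q or mannose-binding lectin bound to a target activates serine proteases that cleave C4 and C2, the products cleave C3, and C5 to C9 then assemble a pore in the target membrane. In coagulation, vitamin K-dependent proteases act in sequence to make thrombin, which turns fibrinogen into fibrin, while antithrombin, protein C and the plasmin system limit the clot. The genes described here are 45 of the 55291 gene symbols in a liver count table: 25 complement genes and 20 genes of clotting and fibrinolysis. They were chosen by name, but with earlier results of these data known. They were put into 10 groups by role.

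The livers came from mice with 1 intact copy of Otub2 (genotype OTUB2 +/-, HET, n = 5) and from wild-type mice (OTUB2 +/+, WT, n = 2). Otub2 encodes a deubiquitinase, and the series was made to compare Otub2 knock-out mice with WT mice. Mice without Otub2 (OTUB2 -/-, HOM) were represented in the pancreas only, where 3 HOM libraries (all male), 5 HET libraries and 3 WT libraries (both sexes in each) were made. All mice were kept under normal conditions and killed by cervical dislocation. The sources used here do not give strain, age, the sex of the liver donors or the deleted part of the gene. They also do not say whether each library came from a separate animal, so p-values measure the spread between these libraries, which may be partly technical. RNA was read by a bulk form of MARS-seq, which counts transcript 3′ ends, so a level does not depend on transcript length. Levels are given as counts per 1000000 of the library's total (CPM).

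Liver libraries held 264660 to 1686234 counts in HET and 155201 and 342609 in WT, so WT values rest on the smallest and the third-smallest library. Otub2 itself had 0 to 2 counts in HET livers and 0 and 1 in WT livers, too few to check the genotype, and a 3′ tag need not lie in the deleted part. Hepatocyte markers such as Alb and Ttr were abundant: the 11 markers of a hepatocyte list in the table summed to 104168 to 115761 CPM in HET livers, against 119784 and 134799 CPM in WT livers. Neutrophil and lymphocyte markers reached at most 6.93 and 8.32 CPM in any liver. Liver HET 5 stood apart: it held 84 counts of the bile duct keratin Krt19, against 0 or 1 in each other liver, and 0 counts of the predicted gene Gm10800, against 212 to 829. Its cholangiocyte list summed to 114 CPM, against 6.44 to 31.9 CPM in the other livers, while sinusoidal endothelial markers (94.3 to 206 CPM in HET livers, 180 and 155 CPM in WT livers) and stellate cell markers (205 to 382 CPM in HET livers, 374 and 304 CPM in WT livers) overlapped. The acute phase transcript Saa1 differed widely among HET livers (544, 4326, 8821, 510 and 77.1 CPM in HET 1 to 5) and stood at 567 and 703 CPM in WT 1 and WT 2.

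The 45 members together made up 3.41% to 4.48% of all counts in HET livers, against 3.49% and 3.55% in WT livers. Their summed level averaged 39710 ± 4275 CPM in HET livers and 35168 ± 409 CPM in WT livers (SD, n = 5 and n = 2), a ratio of 1.13, and the groups overlapped because HET 1 lay below both WT livers. In bulk RNA, fewer cells of a type and less RNA per cell cannot be told apart. No member passed the test. Of the 41 members with enough counts to be tested, edgeR's quasi-likelihood test called 0 at a Benjamini-Hochberg adjusted p under 0.05, and it called 0 of all 4803 genes (0%); DESeq2 called 0 members and 16 genes (0.333%). The lowest adjusted p of a member was 0.281 with edgeR and 0.277 with DESeq2, both for C8b. Unadjusted p-values under 0.05 were given for 5 members (C8b, C8a, Serping1, C9 and Serpinc1), all higher in HET, which is 12.2% of those tested; 5.39% of all genes were higher in HET at that unadjusted threshold, and 497 genes passed it in either direction. Among genes with a mean of at least 100 CPM, the shares higher in HET at that threshold were 12.5% of members and 8.81% of all genes.

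More members had a fitted level above that of WT than below it. The log2 fold change (HET over WT, on TMM-scaled libraries) was above 0 for 34 of 41 members tested (82.9%), against 52.1% of all genes tested, and its median was 0.38 for members against 0.03 for all genes. F9, counted here, passed the count filter through the HET livers alone. C9, also counted, reached the filter's cutoff in WT 1 but not in WT 2, so its pass needed HET livers too. With no filter on low counts, 38 of 45 members and 11408 of 18552 genes were above 0, with medians of 0.54 and 0.43. Abundant genes in general leaned the same way, though less far: among genes with a mean of at least 100 CPM, 29 of 32 members (90.6%, median 0.46) and 60.7% of all 1294 genes (median 0.13) were above 0. Every HET liver lay above both WT livers for 5 members (C8a, C8b, Serping1, Klkb1 and Serpinc1; 12.2%), against 6.95% of all genes. With a mean of at least 100 CPM these shares were 15.6% of members and 8.11% of genes. Every HET liver lay below both WT livers for 0 members, against 11.1% of all genes. These shares are descriptions; the members were not tested as a set. Of the 11 hepatocyte markers 6 were above 0, with a median of 0.01. A library-quality list of 5 genes with counts, Malat1 and Gm10800 among them, did not overlap between the groups. It summed to 837 to 2978 CPM in HET livers, against 3492 and 5257 CPM in WT livers. The lowest sum was that of HET 5, which held 0 counts of Gm10800. Malat1 stood at 140 to 250 CPM in HET livers, against 367 and 1635 CPM in WT 1 and WT 2. Its log2 fold change was -2.33 ± 0.39 (edgeR, adjusted p = 0.0681, equal to the lowest of all genes tested). The part of this list in the members' values was not tested.

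**Figure D1:**
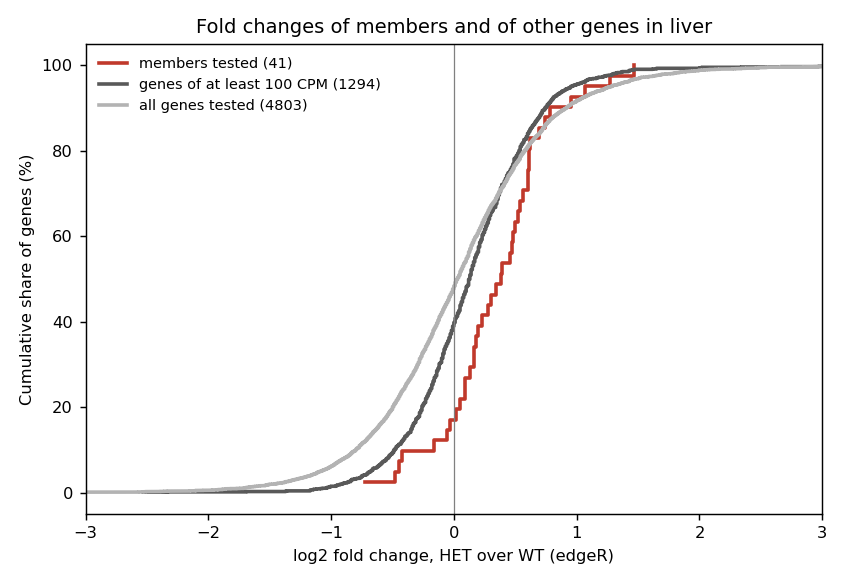
Cumulative share of genes (percent) by log2 fold change of HET over WT livers, for the 41 members tested (red), for the 1294 genes with a mean of at least 100 CPM (dark grey) and for all 4803 genes tested (light grey). The red line lies to the right of both grey lines through most of its range, with a median of 0.38 against 0.13 and 0.03.

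By role, the ratio of group means was highest for the terminal pathway and the anticoagulants and nearest to 1 for the contact system and C3 with the alternative pathway. Summed over its genes, the terminal pathway was 1.55 times as high in HET livers as in WT livers and the anticoagulants 1.31 times. Fibrinogen stood at 1.25 times, the clotting factors and the classical pathway each at 1.2 times and fibrinolysis at 1.18 times. Ratios for the complement regulators (1.07), the lectin pathway (1.04), C3 with the alternative pathway (1.02) and the contact system (0.986) lay near 1. Terminal pathway, anticoagulants and clotting factors were the groups whose 5 HET sums all exceeded both WT sums. Sums over chosen genes were not tested.

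**Figure D2:**
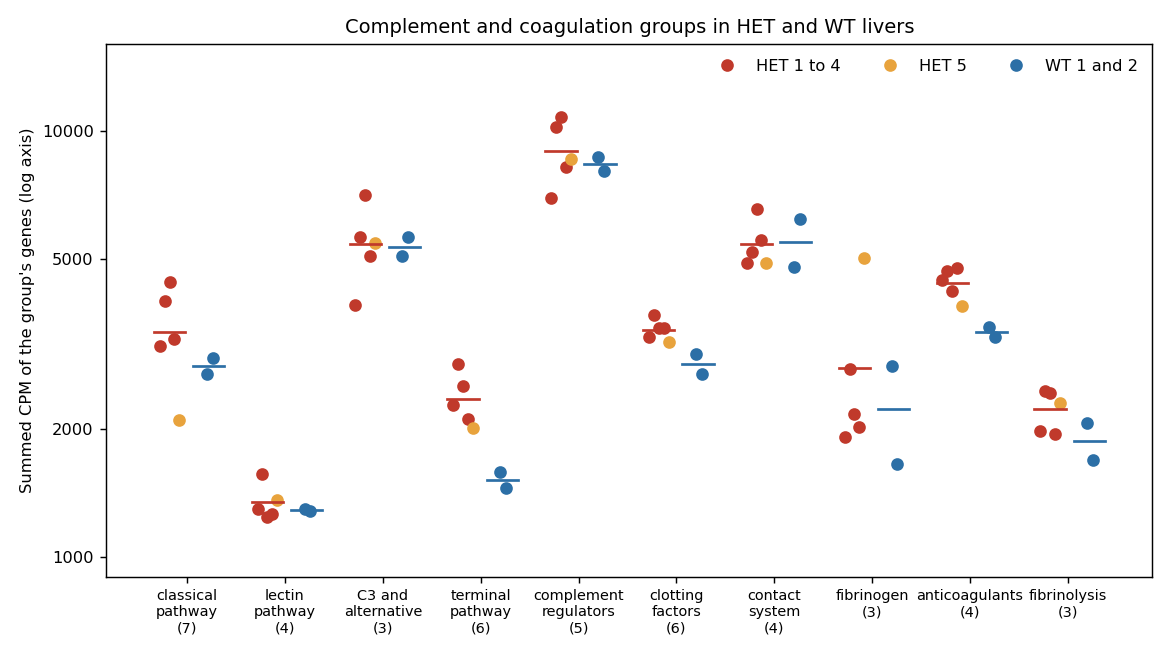
Summed CPM of each functional group (log axis; number of genes in brackets) in each liver, with HET livers in red, HET 5 in orange and WT livers in blue; horizontal lines are group means. HET and WT points do not overlap for the terminal pathway, the clotting factors and the anticoagulants, and HET 5 stands far above the other HET livers for fibrinogen (5028 CPM).

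The terminal pathway builds the membrane attack complex: Hc encodes C5, C6 joins the cleaved C5b, the 3 chains of C8 (C8a, C8b and C8g) insert into the membrane, and C9 polymerises into the pore. All 6 genes had a log2 fold change above 0, between 0.46 and 1.47 with a median of 0.82. The highest was that of C9, which needed HET livers to pass the count filter. Their sum was 2276, 2843, 2517, 2112 and 2006 CPM in HET 1 to 5, against 1585 and 1456 CPM in WT 1 and WT 2. Every HET liver was above both WT livers, HET 5 included. With 1 liver left out at a time, the log2 ratio of the sums ran from 0.55 to 0.69.

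C8a and C8b, the genes of the C8 alpha and beta chains, are neighbours on chromosome 4 (mm10, GENCODE M21: C8b at chr4:104766317-104804548 on the + strand and C8a at chr4:104815679-104876398 on the - strand) and are shown here because both separated the livers by genotype. Their promoters, from 250 bases before to 50 after the start in RefSeq's GRCm38.p6 annotation (C8a at chr4:104876349-104876648, - strand; C8b at chr4:104766067-104766366, + strand; 34 of the 45 members matched that table), read as follows, 5′ to 3′. Capitals mark GTTAAT, a half-site of the hepatocyte factor HNF1, and TTCNNNGAA, the STAT motif, on either strand.
C8a promoter: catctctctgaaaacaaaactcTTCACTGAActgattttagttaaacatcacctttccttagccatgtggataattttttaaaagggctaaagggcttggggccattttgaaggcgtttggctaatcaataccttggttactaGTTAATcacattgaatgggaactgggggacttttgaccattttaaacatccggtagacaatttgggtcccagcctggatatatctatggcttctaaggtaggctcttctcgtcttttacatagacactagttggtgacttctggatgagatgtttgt
C8b promoter: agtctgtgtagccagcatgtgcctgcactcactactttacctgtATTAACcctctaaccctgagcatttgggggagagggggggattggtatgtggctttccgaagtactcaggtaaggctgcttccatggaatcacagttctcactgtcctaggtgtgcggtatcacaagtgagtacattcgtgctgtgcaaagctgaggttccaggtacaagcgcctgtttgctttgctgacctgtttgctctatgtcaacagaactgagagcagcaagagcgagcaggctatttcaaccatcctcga
The half-site lay at -107 in C8a and at -206 in C8b, counted from the start to the first base of the match, and C8a also held a STAT match at -228. GTTAAT occurs in 11 of 36 promoters of members (30.6%) and in 7.1% of all 32851 promoters of that length. For TTCNNNGAA the shares are 8 of 36 (22.2%) and 8.3%. A match is a run of letters and no evidence of binding.

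C8b stood at 285, 473, 480, 325 and 344 CPM in HET 1 to 5, against 193 and 198 CPM in WT 1 and WT 2. The lowest HET liver was above the highest WT liver, and the WT livers were close to each other. The log2 fold change was 1.07 ± 0.34 (SE; edgeR quasi-likelihood test, Benjamini-Hochberg adjusted p = 0.281); without HET 5 it was 1.12 ± 0.30 (adjusted p = 0.0942), the lowest adjusted p of a member in any refit without 1 liver. C8a stood at 207, 331, 267, 147 and 291 CPM in HET 1 to 5, against 142 and 137 CPM in WT 1 and WT 2, with a log2 fold change of 0.95 ± 0.37 (adjusted p = 0.393). HET 4 was only just above the WT livers and rests on 39 counts, against 22 and 47 counts in WT. C8g, whose gamma chain is the lipocalin-like part of C8, was the most abundant of the group, at 1206, 1289, 921, 1043 and 766 CPM in HET livers against 857 and 604 CPM in WT livers, and HET 5 lay between the WT livers (log2 fold change 0.61 ± 0.31, adjusted p = 0.515).

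C9 had the largest fitted difference of the 41 members tested, on few counts. It held 15, 43, 15, 12 and 179 counts in HET 1 to 5 and 5 counts in each WT liver, which gave 27.9, 59.6, 32.9, 45.3 and 106 CPM in HET livers against 32.2 and 14.6 CPM in WT livers. HET 1 lay below WT 1, so the groups overlapped, and HET 5 was the highest. WT 2 lay below the count filter's cutoff of 21.9 CPM, so C9 passed only with HET livers, which favours a log2 fold change above 0. The log2 fold change was 1.47 ± 0.64 (adjusted p = 0.44); it was 1.10 without HET 5, 0.86 without WT 2 and 2.10 without WT 1. Hc averaged 473 ± 136 CPM in HET livers and 315 ± 99.3 CPM in WT livers (SD, n = 5 and n = 2; log2 fold change 0.69 ± 0.36, adjusted p = 0.523), with HET 5 at 286 CPM the lowest HET liver and inside the WT range of 245 to 385 CPM. C6 averaged 149 ± 47.5 CPM in HET livers and 116 ± 0.546 CPM in WT livers, and the groups overlapped (0.46 ± 0.38, adjusted p = 0.713).

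Genes known for male-biased expression in mouse liver, a list of 7, summed to 3034, 3317, 3016, 4493 and 4629 CPM in HET 1 to 5, against 3331 and 1786 CPM in WT 1 and WT 2, and HET 1 to 3 lay between the WT livers. None of the 6 tested passed the adjusted threshold. Their log2 fold changes ran from 0.15 ± 0.93 for Elovl3 to 2.00 ± 0.50 for Hsd3b5, a steroid dehydrogenase (adjusted p = 0.969 and 0.219). Hsd3b5 stood at 108 to 278 CPM in HET livers, against 77.3 and 26.3 CPM in WT livers. Slco1a1 stood at 226 to 307 CPM, against 155 and 90.5 CPM (1.30 ± 0.34, adjusted p = 0.242). Both separated the livers, with adjusted p-values below the lowest of a member (0.281, edgeR). Mup20, Cyp2d9, Cyp4a12a and Elovl3 overlapped. Of the 7 genes on a female-biased list, Cyp2a4 alone had counts, at 2.97 to 14.9 CPM in HET livers against 25.8 and 137 CPM in WT livers. Its log2 fold change was -3.41 ± 0.63 (edgeR, adjusted p = 0.0681, equal to the lowest of all genes tested). Every liver held 2 to 11 counts of Y-linked genes and 0 of Xist. The part of these differences in the values of terminal pathway genes was not tested.

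**Figure D3:**
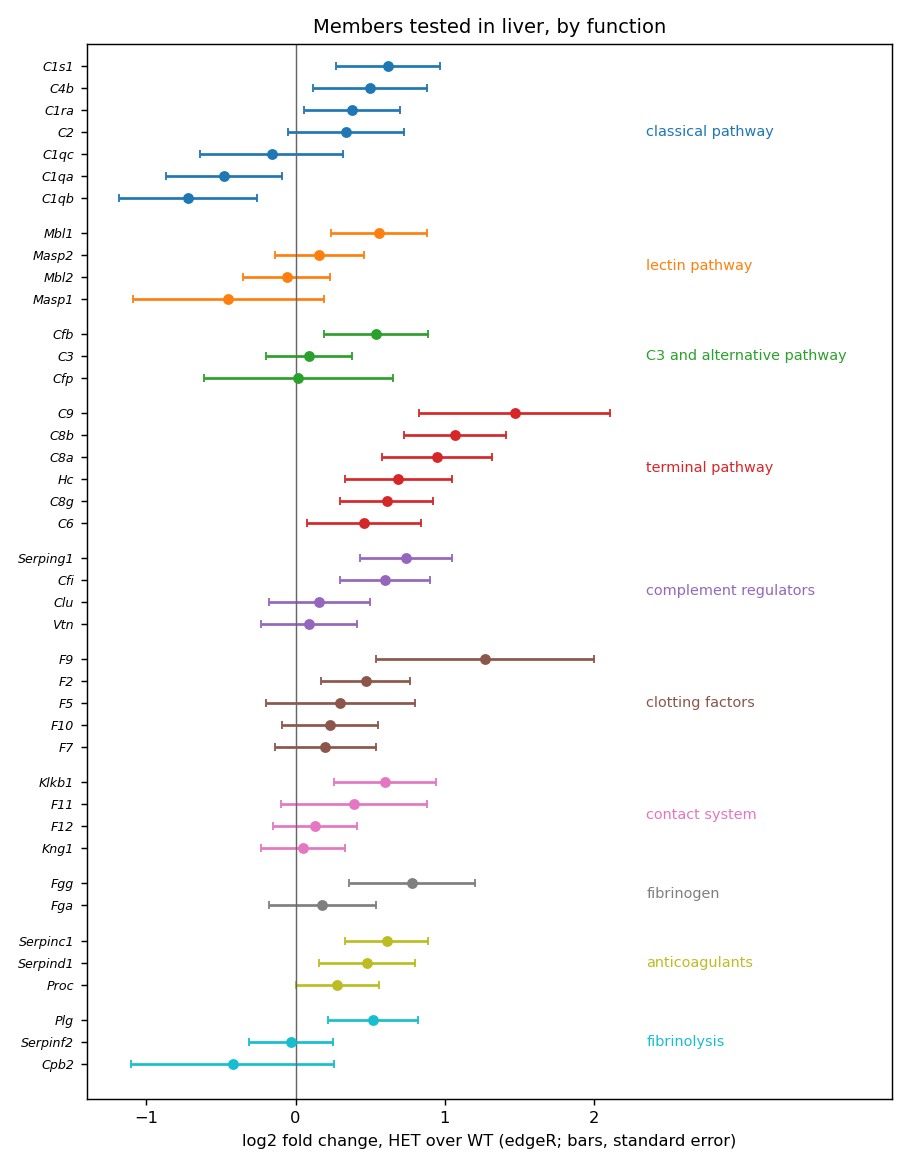
Log2 fold change of HET over WT livers for each of the 41 members tested, from edgeR, grouped by role, with bars of 1 standard error. Terminal pathway genes lie to the right of 0, from 0.46 to 1.47, and the C1q chains to the left, from -0.16 to -0.72; no member passed the adjusted threshold.

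In the classical pathway, fitted fold changes were below 0 for the C1q chains and above 0 for the 4 downstream genes, but none of the 7 passed the test and HET and WT livers overlapped for each. C1qa, C1qb and C1qc encode the 3 chains of the recognition molecule C1q and lie side by side on chromosome 4 (mm10, chr4:136880129-136898803). The C1q chains are a part of the classical pathway group and not one of the 10 groups. They summed to 266, 413, 357, 291 and 198 CPM in HET 1 to 5, against 438 and 482 CPM in WT 1 and WT 2, a log2 ratio of -0.59. Of all genes tested, each taken singly, 11.1% had every HET liver below both WT livers, and no such share was taken for sums of genes. Every HET sum of the C1q chains was below both WT sums. None of the 3 did so alone: C1qa stood at 147, 297, 263, 246 and 109 CPM in HET livers against 284 and 353 CPM in WT livers (log2 fold change -0.48 ± 0.39, adjusted p = 0.696). C1qb averaged 47.5 ± 16.8 CPM in HET livers and 87.2 ± 40.7 CPM in WT livers (-0.72 ± 0.46, adjusted p = 0.619); without WT 1 its log2 fold change was -0.10 and without WT 2 it was -1.19. C1qc averaged 45.5 ± 17.4 CPM in HET livers and 54.4 ± 22.2 CPM in WT livers (-0.16 ± 0.48, adjusted p = 0.935), and HET 4 was low with 4 counts; its log2 fold change was 0.37 without WT 2 and 0.09 with the replicate number as a block.

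In liver, C1q is made chiefly by macrophages, unlike most of the other members. Kupffer cell and macrophage markers, of which all 11 had counts, summed to 367, 439, 281, 257 and 236 CPM in HET 1 to 5, against 432 and 377 CPM in WT 1 and WT 2. Of the 5 tested, 2 were above 0, with a median log2 fold change of -0.17; Clec4f, the Kupffer cell lectin, was at -0.17 ± 0.39, Csf1r, the macrophage growth factor receptor, at -0.64 ± 0.43 and Lyz2, lysozyme, at -0.43 ± 0.48, while Cd5l, a protein secreted by macrophages, was at 0.91 ± 0.64 and Cd163, a haemoglobin scavenger receptor, at 0.25 ± 0.67. Markers too sparse to test went both ways. Vsig4 and Adgre1 were at 0 counts in both WT livers and reached 5 counts and 1 count at most in HET livers. Marco, Timd4, Cd68 and Ctss had higher means in WT livers. Marco averaged 3.48 CPM in HET livers and 20.7 CPM in WT livers, and Timd4 0.119 and 9.66 CPM. Cd68 averaged 8.77 CPM in HET livers and 15.8 CPM in WT livers, and Ctss 5.66 and 10.2 CPM. The part of macrophage content in the C1q values was not tested.

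C1ra and C1s1 encode the proteases of the C1 complex, and C4b and C2 the proteins it cleaves. These 4 genes are likewise only a part of the classical pathway group. They summed to 2861, 3568, 4055, 2955 and 1902 CPM in HET 1 to 5, against 2249 and 2449 CPM in WT 1 and WT 2, a log2 ratio of 0.39 with HET 5 below both WT livers. C4b was the most abundant, at 2046, 2693, 3297, 2309 and 1089 CPM in HET livers against 1707 and 1789 CPM in WT livers. HET 1 to 4 were above both WT livers and HET 5 below them (log2 fold change 0.50 ± 0.38, adjusted p = 0.676). C1s1 was at 0.62 ± 0.35 (adjusted p = 0.57), C1ra at 0.38 ± 0.32 (adjusted p = 0.713) and C2 at 0.34 ± 0.39 (adjusted p = 0.808), and HET and WT livers overlapped for each. The C1s1 to C1ra ratio of counts ran from 0.721 to 2.40 in HET livers, around 0.868 and 1.19 in WT livers. C4a, a near-identical copy of C4b, had 243 counts in HET livers together and 13 in WT livers together (1.69 ± 0.62, adjusted p = 0.377); the split of reads between the copies is uncertain, and C4b counts were 17.5 to 62.7 times those of C4a in HET livers and 44.2 and 87.6 times in WT livers.

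In the lectin pathway, Mbl1 and Mbl2 encode the mannose-binding lectins and Masp1 and Masp2 their proteases. The 4 genes summed to 1345 ± 131 CPM in HET livers and 1290 ± 7.66 CPM in WT livers (SD, n = 5 and n = 2), with the groups overlapping. Mbl1 averaged 470 ± 89.0 CPM in HET livers and 342 ± 71.5 CPM in WT livers (log2 fold change 0.56 ± 0.32, adjusted p = 0.568). Mbl2, its paralog, averaged 616 ± 148 CPM in HET livers and 685 ± 38.9 CPM in WT livers (-0.06 ± 0.29, adjusted p = 0.964). Masp2 was at 0.16 ± 0.30 (adjusted p = 0.893). Masp1, with 3 to 87 counts a liver, varied 7.85-fold among HET livers, from 6.58 to 51.6 CPM. WT 1 stood above that range at 58.0 CPM and WT 2 within it at 32.1 CPM (-0.45 ± 0.64, adjusted p = 0.859).

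C3, where all routes of activation meet, was one of the most abundant members and differed little. It stood at 3641, 4967, 6519, 4659 and 5072 CPM in HET 1 to 5, against 4749 and 5233 CPM in WT 1 and WT 2, so the WT livers lay within the HET range (log2 fold change 0.09 ± 0.29, adjusted p = 0.939). Cfb, factor B, the protease of the alternative C3 convertase, averaged 395 ± 116 CPM in HET livers and 292 ± 12.1 CPM in WT livers (0.54 ± 0.35, adjusted p = 0.615), with HET 1 below both WT livers. Cfp, properdin, which stabilises that convertase, was sparse and ranged from 26.7 to 137 CPM in HET livers, around 45.1 and 99.2 CPM in WT livers (0.02 ± 0.63, adjusted p = 0.996).

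The log2 fold changes of the 4 regulators tested lay between 0.09 and 0.74. Serping1, the C1 inhibitor, which also blocks plasma kallikrein and factor XIIa, stood at 990, 1428, 1269, 809 and 1191 CPM in HET 1 to 5, against 741 and 724 CPM in WT 1 and WT 2. All 5 HET livers were above both WT livers (log2 fold change 0.74 ± 0.31, adjusted p = 0.421). Cfi, factor I, the protease that inactivates C3b and C4b, averaged 397 ± 76.6 CPM in HET livers and 279 ± 47.7 CPM in WT livers, and HET 4 lay between the WT livers (0.60 ± 0.30, adjusted p = 0.506). C3 counts were 9.68 to 16.7 times those of Cfi in HET livers, and 19.4 and 16.8 times in WT livers, a pair picked after the values were seen. Vtn, vitronectin, which like clusterin binds the terminal complex, had the highest mean of all members, 5463 ± 1488 CPM in HET livers and 5529 ± 465 CPM in WT livers (0.09 ± 0.32, adjusted p = 0.946). Clu, clusterin, averaged 1947 ± 579 CPM in HET livers and 1830 ± 957 CPM in WT livers (0.16 ± 0.34, adjusted p = 0.904). C4bp, a cofactor of factor I, was not tested: it had 0 to 8 counts in HET livers and 0 in both WT livers, which allows up to 6.03 CPM over the WT group (a limit of 3 counts, for counting error only), and HET livers held 5.46 CPM together.

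The clotting factors summed to 3289, 3700, 3444, 3446 and 3202 CPM in HET 1 to 5, against 2990 and 2694 CPM in WT 1 and WT 2, and all HET sums exceeded both WT sums. Leaving aside F9, which passed the count filter through the HET livers alone, the 4 genes tested had log2 fold changes between 0.20 and 0.47. No gene of the group separated the livers alone. F2, prothrombin, and F10, the protease that cleaves it, were the most abundant of the group. F2 averaged 1833 ± 260 CPM in HET livers and 1404 ± 520 CPM in WT livers (0.47 ± 0.30, adjusted p = 0.615). WT 1 at 1772 CPM lay within the HET range and WT 2 at 1036 CPM below it. F10 averaged 1297 ± 321 CPM in HET livers and 1193 ± 320 CPM in WT livers (0.23 ± 0.32, adjusted p = 0.859).

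F7, which starts clotting with tissue factor, was at 0.20 ± 0.34 (adjusted p = 0.88), and F5, the cofactor of F10, at 0.30 ± 0.50 (adjusted p = 0.88). F5 was high in HET 5, at 184 CPM against 41.6 to 83.2 CPM in the other HET livers, and at 83.8 and 73.0 CPM in WT livers. F9, whose loss causes haemophilia B, had 19, 30, 11, 4 and 44 counts in HET livers against 0 and 7 counts in WT livers. F9 passed the filter through the HET livers alone, which favours a log2 fold change above 0. Its value was 1.27 ± 0.73 (adjusted p = 0.572). It was 0.70 ± 0.74 without WT 1. Without WT 2 the fit gave 7.27 ± 2.52 against a single liver at 0 counts, a value that depends on the prior count and is no bound. F13b, the carrier subunit of the clot-linking factor XIII, was not tested, with 2 to 34 counts in HET livers and 2 and 1 in WT livers.

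The contact system starts clotting on negatively charged surfaces. Its sum averaged 5426 ± 684 CPM in HET livers and 5503 ± 985 CPM in WT livers (SD, n = 5 and n = 2) and was set by Kng1, the kininogen precursor of bradykinin. Kng1 averaged 4170 ± 597 CPM in HET livers and 4330 ± 948 CPM in WT livers (log2 fold change 0.05 ± 0.28, adjusted p = 0.967); reads of Kng1 and its near-identical copy Kng2 may be split between them. Klkb1, plasma prekallikrein, stood at 156, 219, 167, 159 and 168 CPM in HET 1 to 5, against 116 and 128 CPM in WT 1 and WT 2. Every HET liver was above both WT livers, with 4 of the 5 within a narrow range (0.60 ± 0.34, adjusted p = 0.568). F12, factor XII, was at 0.13 ± 0.28 (adjusted p = 0.909) and F11, factor XI, at 0.39 ± 0.49 (adjusted p = 0.835), and F11 was highest in HET 5, at 91.9 CPM.

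Fibrinogen is assembled from 3 chains encoded by Fga, Fgb and Fgg, which lie next to each other on chromosome 3 (mm10, chr3:83007724-83049863). The 3 promoters (RefSeq, GRCm38.p6; Fga at chr3:83025903-83026202 and Fgg at chr3:83007474-83007773 on the + strand, Fgb at chr3:83049814-83050113 on the - strand) are shown because the chains form 1 protein yet had unequal counts. Capitals mark GTTAAT, TTCNNNGAA and TTNNGCAA, a C/EBP motif, on either strand.
Fga promoter: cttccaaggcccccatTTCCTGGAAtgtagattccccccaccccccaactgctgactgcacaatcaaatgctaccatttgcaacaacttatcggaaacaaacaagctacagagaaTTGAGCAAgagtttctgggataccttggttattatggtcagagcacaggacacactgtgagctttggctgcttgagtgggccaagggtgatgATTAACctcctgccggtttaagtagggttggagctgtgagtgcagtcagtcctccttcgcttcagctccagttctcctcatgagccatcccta
Fgb promoter: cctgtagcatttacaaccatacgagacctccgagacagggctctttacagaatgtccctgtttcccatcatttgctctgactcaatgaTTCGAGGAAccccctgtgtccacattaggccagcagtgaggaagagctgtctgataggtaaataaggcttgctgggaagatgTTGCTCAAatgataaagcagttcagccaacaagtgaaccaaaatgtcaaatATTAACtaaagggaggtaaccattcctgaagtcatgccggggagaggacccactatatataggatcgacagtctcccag
Fgg promoter: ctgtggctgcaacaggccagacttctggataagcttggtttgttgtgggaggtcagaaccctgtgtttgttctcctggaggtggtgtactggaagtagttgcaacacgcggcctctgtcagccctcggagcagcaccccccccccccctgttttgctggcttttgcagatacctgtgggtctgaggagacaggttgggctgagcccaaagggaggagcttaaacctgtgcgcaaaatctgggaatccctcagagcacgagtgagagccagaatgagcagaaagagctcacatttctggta
Fga held the HNF1 half-site at -43, the C/EBP motif at -135 and the STAT motif at -234. Fgb held them at -29, -80 and -162, and none of the letters sought lay in the Fgg window. TTNNGCAA occurs in 11 of 36 promoters of members (30.6%) and in 10.8% of all promoters. The part of these sequences in the unequal counts was not tested.

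Fibrinogen differed more among HET livers than between the groups. Fga stood at 1027, 1562, 1431, 1330 and 2924 CPM in HET 1 to 5, against 1894 and 1170 CPM in WT 1 and WT 2, and Fgg at 884, 1196, 730, 691 and 2098 CPM in HET livers against 896 and 482 CPM in WT livers. HET 5 was far above the rest for both chains. The log2 fold change was 0.18 ± 0.36 for Fga (adjusted p = 0.902) and 0.78 ± 0.42 for Fgg (adjusted p = 0.557). The summed level had a log2 ratio of 0.32, which was -0.01 without HET 5, 0.75 without WT 1 and -0.01 without WT 2. Fgb was not tested: it had 1 to 11 counts a liver, where Fga had 294 to 4930, although the protein holds the chains in equal number. The annotation used for counting is not known, so the low Fgb count may reflect how 3′ tags were assigned. The fibrinogen sum thus rests almost wholly on Fga and Fgg. Fga counts were 1.16, 1.31, 1.96, 1.92 and 1.39 times those of Fgg in HET 1 to 5, and 2.12 and 2.43 times in WT 1 and WT 2, a ratio that did not overlap and was picked after the values were seen.

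The fibrinogen genes are counted among the acute phase genes, whose hepatic levels climb in inflammation. A list of 21 other acute phase genes, none of them a member, summed to 23589, 47363, 77884, 24817 and 15321 CPM in HET 1 to 5, against 23279 and 30177 CPM in WT 1 and WT 2. HET 3 was the highest liver for that list and HET 5 the lowest, while HET 5 was the highest for Fga and Fgg. Of the 19 tested, 18 had a log2 fold change above 0, with a median of 0.57. HET 2 and HET 3, the livers with the highest acute phase sums, had the highest HET value for 13 and 11 of the 41 members tested, and the lowest for 1 and 5. HET 5 had the highest for 12 and the lowest for 13. The same counts were not made over all genes tested, so these are not shown to be particular to the members. The part of the acute phase in the members' values was not tested.

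**Figure D4:**
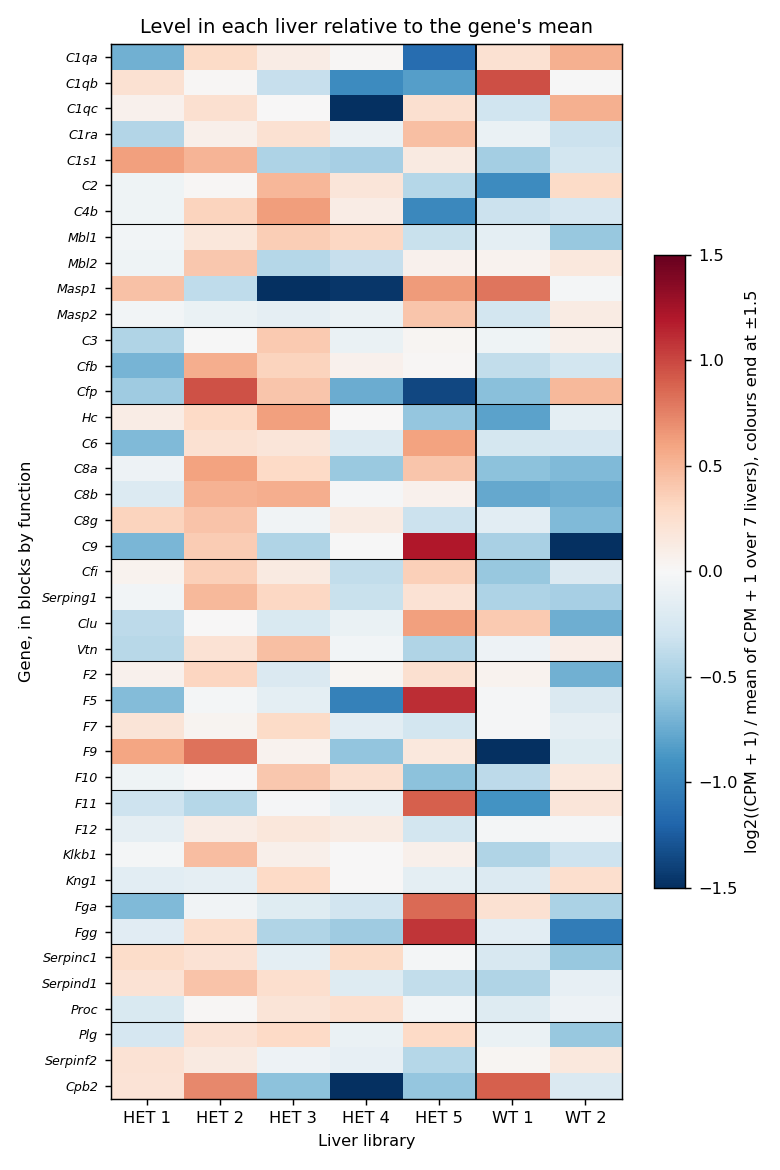
Level of each of the 41 members tested in each liver, as log2 of (CPM + 1) over the mean of that quantity across the 7 livers (red, above; blue, below; colours end at ±1.5), with HET livers left of the vertical line and WT livers right of it. C8a, C8b, Serping1, Klkb1 and Serpinc1 are blue in both WT columns, while fibrinogen, F5, F11 and C9 are reddest in HET 5.

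The anticoagulants summed to 4473, 4692, 4204, 4776 and 3890 CPM in HET 1 to 5, against 3460 and 3287 CPM in WT 1 and WT 2. The lowest HET sum was above the highest WT sum, and the log2 ratio was 0.39. Serpinc1, antithrombin, the main inhibitor of thrombin and factor Xa, stood at 2604, 2503, 1955, 2641 and 2105 CPM in HET livers against 1830 and 1451 CPM in WT livers, again without overlap (log2 fold change 0.61 ± 0.28, adjusted p = 0.47). Serpind1, heparin cofactor II, another thrombin inhibitor, averaged 634 ± 141 CPM in HET livers and 487 ± 78.6 CPM in WT livers (0.48 ± 0.32, adjusted p = 0.626). Proc, protein C, which inactivates factors Va and VIIIa, averaged 1399 ± 183 CPM in HET livers and 1229 ± 70.2 CPM in WT livers (0.28 ± 0.28, adjusted p = 0.761), with HET 1 below both WT livers. Pros1, its cofactor protein S, was not tested, with 1 to 25 counts in HET livers and 3 and 5 in WT livers.

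Of the fibrinolysis genes, Plg, which encodes plasminogen, the precursor of the fibrin-cutting protease, averaged 1629 ± 271 CPM in HET livers and 1213 ± 280 CPM in WT livers (log2 fold change 0.52 ± 0.30, adjusted p = 0.573). WT 1 at 1411 CPM lay within the HET range and WT 2 at 1016 CPM below it. The inhibitors of fibrinolysis did not share that direction. Serpinf2, the plasmin inhibitor antiplasmin, averaged 568 ± 96.1 CPM in HET livers and 620 ± 39.0 CPM in WT livers (-0.03 ± 0.28, adjusted p = 0.983). Cpb2, a carboxypeptidase that protects fibrin, was sparse, with 1 to 37 counts in HET livers and 9 in each WT liver (-0.42 ± 0.68, adjusted p = 0.877).

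Other genes of the same pathways, from lists drawn up by function, gave 0 calls with edgeR, and 1 gene of each list had an unadjusted p under 0.05. Of 28 further complement genes, 8 were tested and 5 of those had a log2 fold change above 0. Of 27 further coagulation genes, 11 were tested and 10 were above 0. Besides C4a, the smallest p-values among the complement genes belonged to Cpn1, Cpn2 and C1rl. Cpn1, the catalytic chain of carboxypeptidase N, which inactivates the C3a and C5a peptides, stood at 275, 294, 379, 393 and 403 CPM in HET 1 to 5, against 522 and 569 CPM in WT 1 and WT 2. Every HET liver was below both WT livers (-0.56 ± 0.27, adjusted p = 0.487). Its partner chain gene Cpn2 was at 0.50 ± 0.40 (adjusted p = 0.698), and C1rl, a relative of C1ra, at 0.85 ± 0.57 (adjusted p = 0.639).

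Among the coagulation genes, Serpina10, which encodes the protein Z-dependent inhibitor of factor Xa, stood at 303, 358, 430, 351 and 234 CPM in HET 1 to 5, against 174 and 219 CPM in WT 1 and WT 2, again without overlap (log2 fold change 0.86 ± 0.34, adjusted p = 0.393). Proz, the gene of protein Z itself, was at 0.74 ± 0.37 (adjusted p = 0.513), with HET 5 at 216 CPM between the WT livers. Vkorc1, the vitamin K reductase that warfarin inhibits, was at 0.47 ± 0.40 (adjusted p = 0.714), and Mcfd2, part of the receptor that exports factors V and VIII from the endoplasmic reticulum, at 0.80 ± 0.72 (adjusted p = 0.733).

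In the pancreas the members' summed level was far below that in liver, with a few genes as exceptions. Of the 45, 25 had 0 counts in all 11 pancreas libraries, including Serping1, C8b and the 3 fibrinogen chains, while each had counts in liver. The summed level was 69.9 to 351 CPM in HOM, 105 to 3479 CPM in HET and 347 to 1589 CPM in WT pancreas libraries, against 34137 to 44827 CPM over the 7 livers. In the 2 highest pancreas libraries most counts were Clu, with 4457 counts (3360 CPM) in HET 11 and 2097 counts (3127 CPM) in HET 16, above the highest liver value of 2936 CPM; without Clu they summed to 119 and 289 CPM. In WT 11, the highest WT library, C1qa stood at 1022 CPM, C1qb at 308 CPM and Masp1 at 197 CPM, from 83, 25 and 16 counts, each above its highest liver value (353, 116 and 58.0 CPM). The tissues come from separate tables and most pancreas libraries were shallow, so no genotype comparison was made there.

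**Figure D5:**
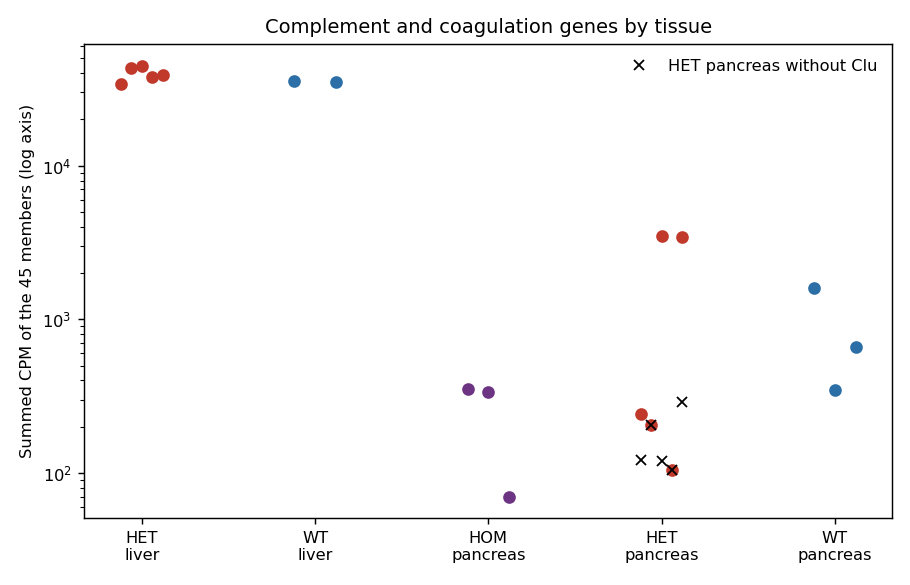
Summed CPM of the 45 members (log axis) in each liver and pancreas library, by genotype; crosses give the HET pancreas libraries without Clu. Livers lie between 34137 and 44827 CPM and pancreas libraries between 69.9 and 3479 CPM.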

How the data were processed

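Per the labels' protocols, RNA was extracted with TRI reagent and sequenced by bulk MARS-seq. STAR and cutadapt, with the build mm10, are named in the submitters' processing notes. The sources used here do not give their versions, the annotation, the use of strand or the handling of molecular barcodes. The authors deposited 1 table of whole-number counts per gene for each tissue, called corrected without saying for what, so p-values hold only if the values remained close to counts. No normalisation was visible: totals differed between libraries. CPM is counts per 1000000 of the library total. edgeR 4.0.16 (R 4.3.3; filterByExpr, a cutoff of 21.9 CPM in at least 2 livers, TMM, robust quasi-likelihood F test, Benjamini-Hochberg over 4803 genes) compared 5 HET with 2 WT livers, with no covariate and 5 residual degrees of freedom. The biological coefficient of variation was 35.4%. Standard errors are the log2 fold change over the root of F. DESeq2 1.42.0, other normalisations and filters, a replicate block and leaving out each liver were alternatives. The fit was tested on simulated counts. It called 7.57% of genes given a 2-fold difference and 62.1% of those given a 4-fold difference, so most 2-fold differences would be missed. All members are named; of other pathway genes, up to 4 per list with the smallest p. Members and lists were chosen with earlier results of these data known. Coordinates are from GENCODE M21 (mm10) and promoters from RefSeq (GRCm38.p6). Counting intervals and limits cover counting error only.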

Additional observations from a re-analysis of the deposited data

Results flagged for a closer look

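Among the 5 HET livers, each of the 45 members and 10 group sums was examined for 1 liver standing far from the other 4 relative to the whole range (a gap over range above 0.71), which chance gives in about 1 in 20 groups. It held for 5 members and 1 sum. C1qc was low in HET 4, at 15.1 CPM against 48.2 to 56.9 CPM in the other HET livers, from 4 counts. Klkb1 was high in HET 2, at 219 CPM against 156 to 168 CPM. HET 5, the deepest library, stood high for the others: Masp2 at 303 CPM against 206 to 221 CPM, F11 at 91.9 CPM against 36.0 to 48.2 CPM and Fga at 2924 CPM against 1027 to 1562 CPM. The fibrinogen sum in HET 5 was 5028 CPM, against 1917 to 2763 CPM in the other HET livers. Krt19 and the cholangiocyte list were also highest in HET 5 (49.8 CPM and 114 CPM); their part in these values was not tested.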

How the results depend on the processing

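In every alternative run, 0 members were called and 30 to 38 had a log2 fold change above 0. Over all genes, the count called was 0 with edgeR, 16 with DESeq2, 57 with no filter on low counts, 6 with a mean of at least 10 CPM and 41 with the replicate number as a block; leaving out 1 liver gave 0 to 6 (1 without HET 1, 6 without HET 5, 4 without WT 1). The numbers 1 and 2 occur in both genotypes, but only 2 pairs exist, their deviations correlated at -0.0251 and -0.026, and no source says they pair livers; under the block 0 members were called and the lowest adjusted p was 0.106. Library totals in place of TMM moved the median of all genes to -0.07 and that of members to 0.28, with 30 of 41 members above 0. With no filter the medians were 0.43 for all genes and 0.54 for members, a smaller gap.

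Of 615 refitted member log2 fold changes, 37 changed sign, over 14 of 41 members; the cause was not tested. Under the block these were C1qc 0.09, Mbl2 0.18, C3 -0.12, F5 -0.05, F11 -0.04, Kng1 -0.05, Fga -0.11, Serpinf2 0.20 and Cpb2 0.30. With library totals they were C3 -0.02, Cfp -0.13, Vtn -0.03 and Kng1 -0.07. With no filter they were Mbl2 0.10 and Serpinf2 0.12, and with at least 10 CPM Serpinf2 0.0. Leaving out 1 liver gave C1qc -0.39 to 0.37, C2 -0.02 to 1.12, Mbl2 -0.22 to 0.01, Masp1 -0.90 to 0.05, C3 -0.06 to 0.20, Cfp -0.43 to 0.75, Clu -0.29 to 0.93, Vtn -0.08 to 0.20, F5 -0.12 to 0.48, Kng1 -0.08 to 0.28, Fga -0.13 to 0.67, Serpinf2 -0.10 to 0.07 and Cpb2 -0.98 to 0.25.

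The median log2 fold change of the members tested was 0.38 for regulators, 0.26 for the contact system and -0.03 for fibrinolysis. The log2 ratios of their sums were 0.1, -0.02 and 0.24. With TMM scaling the log2 ratio of the sums was 0.36 for clotting factors. With DESeq2 scaling it was 0.39 for clotting factors and 0.51 for anticoagulants. With 1 liver left out it ran from -0.19 to 0.17 for the contact system. The count of members with every HET liver above both WT livers, an alternative added after seeing the data, was 5 with TMM and DESeq2 scaling (8.60% and 9.20% of all genes) and 5 to 14 with 1 liver left out: 11 without HET 1 (7.87% of all genes), 9 without HET 5 (9.47%), 12 without WT 1 (17.1%) and 14 without WT 2 (22.4%). With 1 WT liver left, its spread is assumed to be that of the others. Low counts limit C9, F9, Masp1, Cfp, Cpb2 and the untested C4bp, F13b, Fgb and Pros1.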
